A study of Mus musculus with 6 samples.

Results

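The 9 genes described here encode chains and linkers of the basement membrane: the laminin alpha chains Lama3, Lama4 and Lama5, the beta chains Lamb1, Lamb2 and Lamb3, the gamma chain Lamc1, nidogen 1 (Nid1) and perlecan (Hspg2). They were taken by symbol from a table of 26971 features, each of the 9 was found on a single row, and all 9 were among the 14274 genes that passed the filter on low counts. The libraries were made from polyadenylated RNA of the kidney cortex, taken 1 day after surgery from male mice of strain C57BL/6, in 2 groups of 3. The first group is ischaemia-reperfusion injury (IRI) with renal congestion, whose treatment label reads IRI with IVCC and whose titles read Cong_IRI. The second is IRI alone, whose titles read CLK_IRI. Ischaemia-reperfusion injury, a stop and return of blood flow, was thus shared by all 6 libraries, and no uninjured kidney was analysed here. The labels expand neither IVCC nor CLK, give no age, and do not say that the libraries came from separate animals. The p-values thus measure the spread between these libraries, which may be technical. Each n and SD below is likewise over libraries.

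A basement membrane is a thin sheet of matrix under epithelium and endothelium and around muscle cells. Laminins are trimers of an alpha, a beta and a gamma chain, secreted as a unit and joined into a network on the cell surface. Nidogen ties that network to collagen IV, and perlecan, a heparan sulphate proteoglycan, binds both. In kidney, the chains Lama5, Lamb2 and Lamc1 build the mature laminin of the glomerular basement membrane, while Lama3 and Lamb3 belong to the laminin of epithelial anchoring contacts, a form known from skin.

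Total counts ranged from 11376642 to 12856600 in congested IRI libraries and from 10865860 to 14350425 in IRI libraries. Proximal tubule genes, which mark the labelled tissue, were expressed in every library. A list of 8 summed to 2452, 7575 and 7735 CPM (read counts scaled to the corrected library total) in congested IRI replicates 1, 2 and 3. In IRI replicates 1, 2 and 3 the sums were 2971, 6970 and 8012 CPM, so replicate 1 was lowest in both groups. The first principal component, with 68.2% of the variance of the 1000 most variable genes, set replicate 1 of both groups (-41.8 and -39.6) apart from the other 4 libraries (10.2 to 32.9). edgeR's quasi-likelihood test called 0 of 14274 genes (0%) between the groups at an adjusted p under 0.05, with 285 genes at an unadjusted p under 0.05. The count was 0 in DESeq2 too, where 354 genes had an unadjusted p under 0.05, and in limma-voom, where 275 did. Differences followed transcript length: the median log2 fold change, congested over IRI, was -0.48 for genes with a longest transcript under 1 kb and 0.34 for those over 8 kb. The members have a median longest transcript of 6091 bases, against 3281 over all genes tested, so the length trend is given beside their results. All levels, the sums above and those below, are CPM scaled with TMM factors, which correct library totals for a few dominant genes. CPM per kb of exon is used where genes are compared with each other.

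Lamb1 was the most abundant of the 9 transcripts, at 18.4 ± 1.72 CPM per kb over the 6 libraries (SD). Lama5 at 6.67 ± 1.43, Nid1 at 6.40 ± 2.05 and Lamc1 at 6.15 ± 1.58 CPM per kb followed and did not differ beyond their spread. Lamb2 stood at 4.38 ± 1.35 and Hspg2 at 2.41 ± 0.725 CPM per kb. Lama3 at 1.76 ± 0.864 and Lamb3 at 1.36 ± 0.516 CPM per kb overlapped in their spread, and Lama4 was lowest at 0.358 ± 0.130 CPM per kb. The bases of exon used for Lamb1 and Lama4 exceed their longest transcript by far, and with the longest transcript as length their levels were 31.6 and 0.714 CPM per kb, with Lamb1 still highest and Lama4 still lowest.

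A single chain held most of the alpha transcript and another most of the beta transcript. Lama5 made up 67.1%, 54.1% and 57.7% of summed alpha-chain CPM per kb in congested IRI replicates 1, 2 and 3, against 69.7%, 62.7% and 55.8% in IRI replicates 1, 2 and 3. Lamb1 made up 75.9 ± 4.84% of beta-chain CPM per kb in congested IRI and 76.8 ± 5.46% in IRI kidneys (SD, n = 3 each). Lama3 held 17.3 ± 4.31% of the alpha class in congested IRI and 12.7 ± 4.92% in IRI kidneys (SD, n = 3 each), and the libraries overlapped, with 12.9% to 21.6% in congested IRI and 8.1% to 17.9% in IRI.

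**Figure D1:**
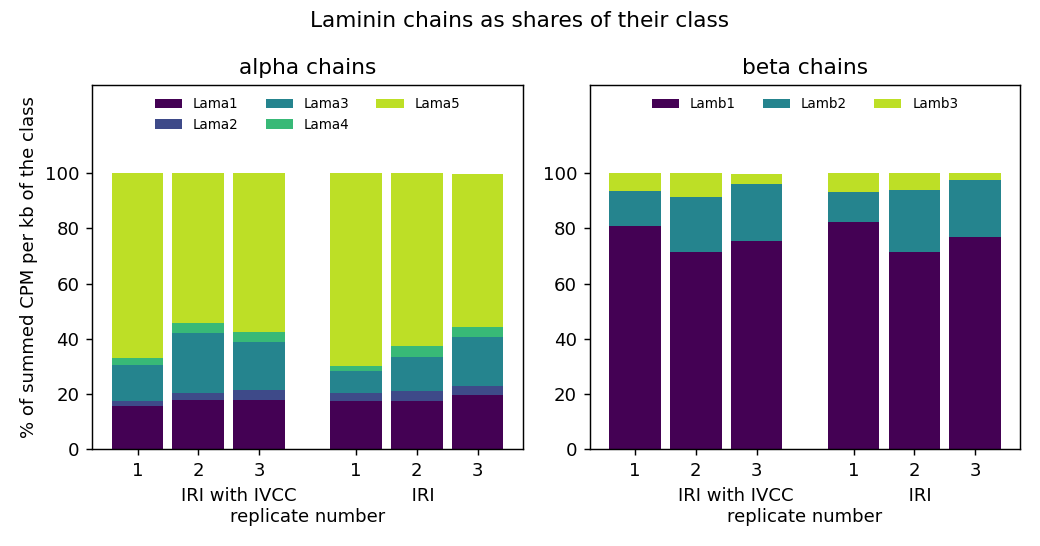
Each bar is a library and shows the share of each laminin chain in the summed CPM per kb of exon of its class, for alpha and beta chains, with congested IRI (IRI with IVCC) left of IRI and replicates numbered 1 to 3. Lama5 holds 54.1% to 69.7% of the alpha class and Lamb1 71.3% to 82.3% of the beta class in every library.

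Nid1 and Lamc1 were higher in every congested library than in every IRI library, and neither passed the adjusted test. Groups that do not overlap in this direction were found for 3.42% of all genes tested, and the reverse, for which no member qualified, for 3.07%. Among genes with a longest transcript of 5 to 8 kb, the length class of both Nid1 and Lamc1, the higher side held 6.42%. At an unadjusted p under 0.05, Nid1 and Lamc1 were the 2 members on the higher side, against 0.988% of all genes, and no member was on the lower side, against 1.01%. Over the 9 members, 7 had a log2 fold change above 0 and the median was 0.45, against 49.6% of genes above 0 and a median of -0.005 over all genes tested.

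Nid1, which links laminin to collagen IV, had 67.1, 50.6 and 50.4 CPM in congested IRI replicates 1, 2 and 3. IRI replicates 1, 2 and 3 held 32.2, 29.9 and 36.4 CPM. The lowest congested library thus lay well above the highest IRI library. The mean was 56.0 ± 9.60 CPM in congested IRI and 32.8 ± 3.28 CPM in IRI kidneys (SD, n = 3 each), 1.70-fold higher. The log2 fold change was 0.77 ± 0.20 (SE). Its unadjusted p of 0.00612 ranked 7th of 14274 genes, at an edgeR adjusted p of 0.934. Within replicates 1, 2 and 3 the congested library was higher by log2 1.05, 0.75 and 0.47. Nid1 lies on chromosome 13 from 13437551 to 13512269 on the plus strand of GRCm38, with 20 exons in its longest transcript. An antisense gene shares 143 exon bases with it, has no row in the table, and could add reads if strand was not used in counting.

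The start-site windows of Nid1, the member with the smallest p, and of Lamb1, the member with the highest level, whose groups overlapped, are shown for comparison. Both run from 250 bases before to 50 after the RefSeq start of build GRCm38.p6, on the plus strand, with motif matches in capitals. Searched on both strands were the TEAD motif GGAATG, the binding site of the partners of YAP, the AP-1 motif TGANTCA and the GC box GGGCGG. The Nid1 window is chr13:13437352-13437651 and the Lamb1 window is chr12:31265043-31265342.
Nid1: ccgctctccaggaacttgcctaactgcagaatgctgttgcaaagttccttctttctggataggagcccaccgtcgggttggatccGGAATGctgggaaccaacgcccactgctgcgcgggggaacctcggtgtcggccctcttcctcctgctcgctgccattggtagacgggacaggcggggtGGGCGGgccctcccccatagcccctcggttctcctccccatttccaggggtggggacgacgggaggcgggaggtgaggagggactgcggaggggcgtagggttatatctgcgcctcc
Lamb1: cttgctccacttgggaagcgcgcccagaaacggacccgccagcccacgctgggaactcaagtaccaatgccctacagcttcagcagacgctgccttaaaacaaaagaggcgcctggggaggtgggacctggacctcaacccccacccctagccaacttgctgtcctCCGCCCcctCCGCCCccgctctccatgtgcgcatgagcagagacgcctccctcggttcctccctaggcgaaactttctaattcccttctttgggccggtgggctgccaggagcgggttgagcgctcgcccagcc
The Nid1 window holds a TEAD match 165 bases before the start and a GC box, and the Lamb1 window holds 2 GC boxes in the reverse orientation. RefSeq windows were at hand for 6 of the 9 members, and of 32851 windows of the same length over all genes 14.7% held the TEAD motif, 7.81% the AP-1 motif and 35.7% the GC box. The TEAD motif was also in the window of 1 of the 2 Lamb3 starts, no member's window held the AP-1 motif, and GC boxes numbered 5 in Hspg2 and 4 in Lama5. These matches are letters in a window and do not show binding.

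Lamc1, the gamma chain shared by most laminins, had 64.9, 62.0 and 57.3 CPM in congested IRI replicates 1, 2 and 3. The IRI replicates held 32.3, 39.1 and 49.3 CPM. The groups did not overlap, although IRI replicate 3 came close to congested replicate 3. The mean was 61.4 ± 3.88 CPM in congested IRI and 40.3 ± 8.57 CPM in IRI kidneys (SD, n = 3 each), and the log2 fold change 0.61 ± 0.21 (SE), with an unadjusted p of 0.0230 and an edgeR adjusted p of 0.934. Within replicates 1, 2 and 3 it was higher by log2 1.00, 0.66 and 0.21. On GRCm38 the gene spans chromosome 1, minus strand, 153218922 to 153332786.

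Perlecan (Hspg2) had 34.3, 40.5 and 48.7 CPM in congested IRI replicates 1, 2 and 3. In IRI replicates 1, 2 and 3 it had 19.1, 27.1 and 37.5 CPM. The congested library was the higher in each replicate number, by log2 0.84, 0.58 and 0.38, yet IRI replicate 3 lay above congested replicate 1, so the groups overlapped. The log2 fold change was 0.56 ± 0.28 (SE), at an edgeR adjusted p of 0.934. Hspg2, on chromosome 4 from 137468769 to 137570630 on the plus strand of GRCm38, has the longest transcript of the 9 genes, at 14187 bases.

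Of the alpha chains, Lama5, the chain of most mature tubular and vascular basement membranes, had 95.03, 80.1 and 84.7 CPM in congested IRI replicates 1, 2 and 3. The IRI replicates held 52.0, 60.3 and 83.3 CPM. Replicates 1 and 2 of IRI were low, and IRI replicate 3 reached the congested level, which left a log2 fold change of 0.41 ± 0.23 (SE) and an edgeR adjusted p of 0.934. Lama3, the alpha chain of the epithelial anchoring laminin, had 17.3, 30.1 and 24.04 CPM in congested IRI and 5.72, 10.99 and 25.2 CPM in IRI replicates 1, 2 and 3. Its highest IRI library exceeded its lowest by a larger factor than for any other member, and its log2 fold change was 0.77 ± 0.51 (SE), at an edgeR adjusted p of 0.934. Within replicates 1 and 2 it was higher by log2 1.57 and 1.44, and in replicate 3 the difference was -0.07.

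Lama4, an alpha chain of vessel walls, was the member with the fewest reads, 20 to 82 per library. It had 3.76, 5.99 and 5.17 CPM in congested IRI and 1.59, 4.09 and 5.29 CPM in IRI replicates 1, 2 and 3. Counting error alone gives a 95% exact Poisson interval of 0.970 to 2.45 CPM for IRI replicate 1, below that of congested replicate 1, 2.71 to 5.09 CPM. The intervals overlapped in replicate 2, at 3.016 to 5.423 CPM in IRI and 4.766 to 7.438 CPM in congested IRI. They also overlapped in replicate 3, at 4.034 to 6.805 CPM in IRI and 3.998 to 6.576 CPM in congested IRI. The groups overlapped, and the log2 fold change was 0.45 ± 0.46 (SE), at an edgeR adjusted p of 0.934. Lama3 lies on chromosome 18 from 12333819 to 12583013, Lama4 on chromosome 10 from 38965515 to 39110188, both on the plus strand, and Lama5 on the minus strand of chromosome 2, 180176373 to 180225859 (GRCm38). An antisense gene that shares 197 exon bases with Lama3 has no row in the table.

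None of the 3 beta chains separated the groups. Lamb1 had 170.8, 162.7 and 201.1 CPM in congested IRI replicates 1, 2 and 3, against 206.0, 177.7 and 179.2 CPM in IRI replicates 1, 2 and 3. The groups overlapped throughout, with a log2 fold change of -0.07 ± 0.20 (SE) and an edgeR adjusted p of 0.960. Scaling to total counts, under which the median of all genes was 0.095, gave Lamb1 a log2 fold change of 0.03 and Lamb2 one of 0.05. Lamb2, the beta chain of the glomerular laminin, had 16.4, 28.3 and 33.9 CPM in congested IRI and 16.5, 34.7 and 29.9 CPM in IRI replicates 1, 2 and 3. Replicate 1 was the low library in both groups, and the log2 fold change was -0.04 ± 0.36 (SE). Lamb3, the partner of Lama3, had 9.05, 13.01 and 6.81 CPM in congested IRI and 11.6, 9.80 and 3.52 CPM in IRI replicates 1, 2 and 3. Its differences within replicates 1, 2 and 3 were log2 -0.35, 0.40 and 0.92, so its order over the replicate numbers was opposite to that of Lama3, and its log2 fold change was 0.21 ± 0.46 (SE). Leaving out a single library turned its sign, to -0.15 without IRI replicate 3 and -0.07 without congested replicate 2. That of Lamb2 was 0.20 without congested replicate 1, and 0.18 and 0.04 without IRI replicates 2 and 3.

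On GRCm38 Lamb1 lies on chromosome 12 from 31265234 to 31329644, Lamb2 on chromosome 9 from 108479736 to 108490530 and Lamb3 on chromosome 1 from 193207699 to 193343878, all on the plus strand. All 9 members are annotated as protein-coding. The annotated span of Lamb3 also covers Hsd11b1 and G0s2 on the opposite strand, which share no exon base with it.

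**Figure D2:**
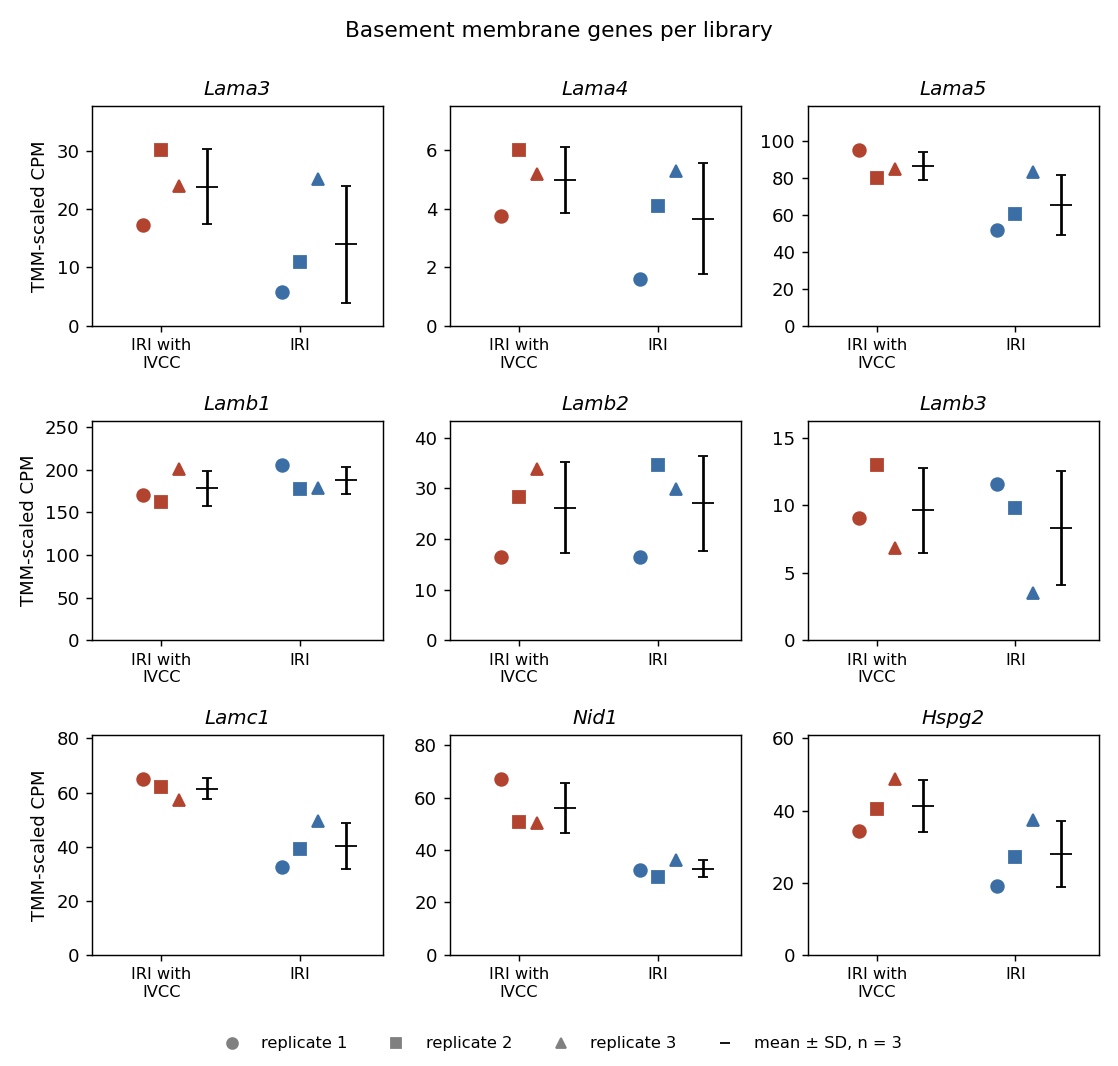
Each panel gives the TMM-scaled CPM (y axis, from 0) of a gene in the 3 congested IRI libraries (IRI with IVCC, left) and the 3 IRI libraries (right), with the replicate number as the symbol and the mean ± SD (n = 3) as a black bar. The groups do not overlap for Lamc1 and Nid1, IRI replicate 3 reaches the congested range for Lama3, Lama4 and Lama5, and Lamb1, Lamb2 and Lamb3 overlap.

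With the replicate number as a block, a pairing that the labels do not state, edgeR again called 0 of 14274 genes (0%) and no member. Replicate 1 of both groups deviated together, but correlations did not tell which of numbers 2 and 3 pair. Nid1 had a blocked log2 fold change of 0.76 ± 0.19 (SE) and an edgeR adjusted p of 0.577. Unadjusted, 4 members on the higher side lay under 0.05, namely Nid1, Hspg2, Lamc1 and Lama3, against 4.08% of all genes on that side. None lay there on the lower side, against 2.98%. With the block Lama3 stood at 0.97 ± 0.33 (SE), Hspg2 at 0.60 ± 0.19 and Lamc1 at 0.63 ± 0.21. Nid1, Lamc1, Hspg2 and 1 further member, Lama5, were higher in all 3 replicate numbers, which was so for 13.1% of all genes. By longest transcript it was so for 20.9% of genes of 5 to 8 kb and 19.4% of those over 8 kb. No member was lower in all 3, against 13.1% of all genes. In Lama5 the difference in replicate 3 was only 0.02.

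The length of the transcripts moved with these differences. Among the 2244 genes tested with a longest transcript of 5 to 8 kb, the class of Lama4, Lamb1, Lamb2, Lamc1 and Nid1, 82.4% had a log2 fold change above 0, with a median of 0.24. Among the 736 genes over 8 kb, the class of Lama3, Lama5 and Hspg2, 91.3% were above 0. Longer genes were higher in congested IRI in replicates 1 and 2, and the trend was smaller and ran the other way in replicate 3. For the class over 8 kb the median difference was log2 0.61 in replicate 1, 0.69 in replicate 2 and -0.15 in replicate 3. Nid1, Lamc1, Lama3 and Lama4 exceeded the median of their class in each replicate number, whereas Hspg2 and Lama5 exceeded theirs in replicates 1 and 3 and lay below it in replicate 2. Of the genes in their class, 4.59% had a log2 fold change as high as that of Nid1, 9.14% one as high as that of Lamc1 and 5.30% one as high as that of Lama3. The shares were 17.9% for Hspg2, 18.5% for Lama4 and 38.7% for Lama5. Lamb1 stood low in its class, with 89.0% of genes as high or higher, and Lamb2 likewise with 86.6%.

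**Figure D3:**
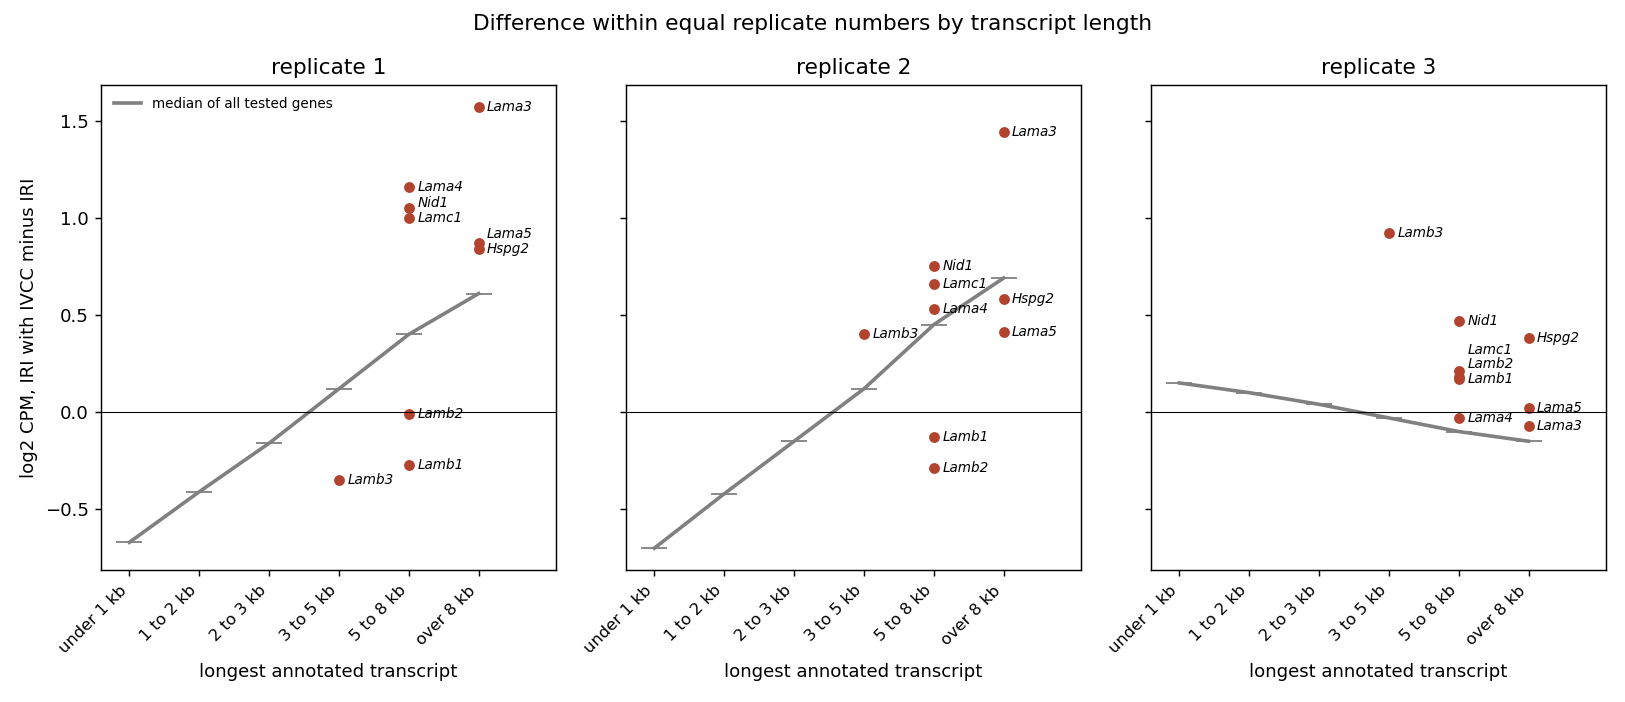
Each panel is a replicate number and plots the log2 CPM difference, congested IRI minus IRI, against the class of longest annotated transcript, as the median of all tested genes (grey) and as single points for the 9 members (red). The grey line climbs with length in replicates 1 and 2, to 0.61 and 0.69 over 8 kb, and declines in replicate 3, to -0.15, while Nid1, Lamc1, Lama3 and Lama4 lie above it in all 3 panels and Lamb1 and Lamb2 lie below it in replicates 1 and 2.

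After each library was corrected for a fitted trend over length and GC content, Nid1 and Lamc1 still did not overlap between the groups, with the congested libraries higher as in 3.10% of all genes, and no member was separated the other way, against 3.89%. Nid1 and Lamc1 were then the 2 members higher in all 3 replicate numbers, against 12.7% of all genes, and no member was lower in all 3, against 16.9%. Nid1 then stood at 69.9, 43.3 and 45.1 CPM in congested IRI and 42.2, 33.2 and 32.2 CPM in IRI replicates 1, 2 and 3. Lamc1 stood at 69.4, 50.9 and 48.5 CPM in congested IRI and 46.4, 44.4 and 41.8 CPM in IRI replicates 1, 2 and 3. With the block and the trend removed, the log2 fold change of Nid1 was 0.54 ± 0.13 (SE), that of Lama3 0.58 (0.22) and that of Lamc1 0.33 (0.14), each at an edgeR adjusted p of 0.551. These 3 were the members on the higher side at an unadjusted p under 0.05, against 3.86% of all genes. Hspg2 stood at 0.19 ± 0.14 (SE) and Lama5 at 0.04 (0.13), while Lamb1 stood at -0.28 (0.17) and Lamb2 at -0.24 (0.16). The median of the 9 members was 0.19, against 0.45 with neither step, and edgeR called 0 genes (0%).

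**Figure D4:**
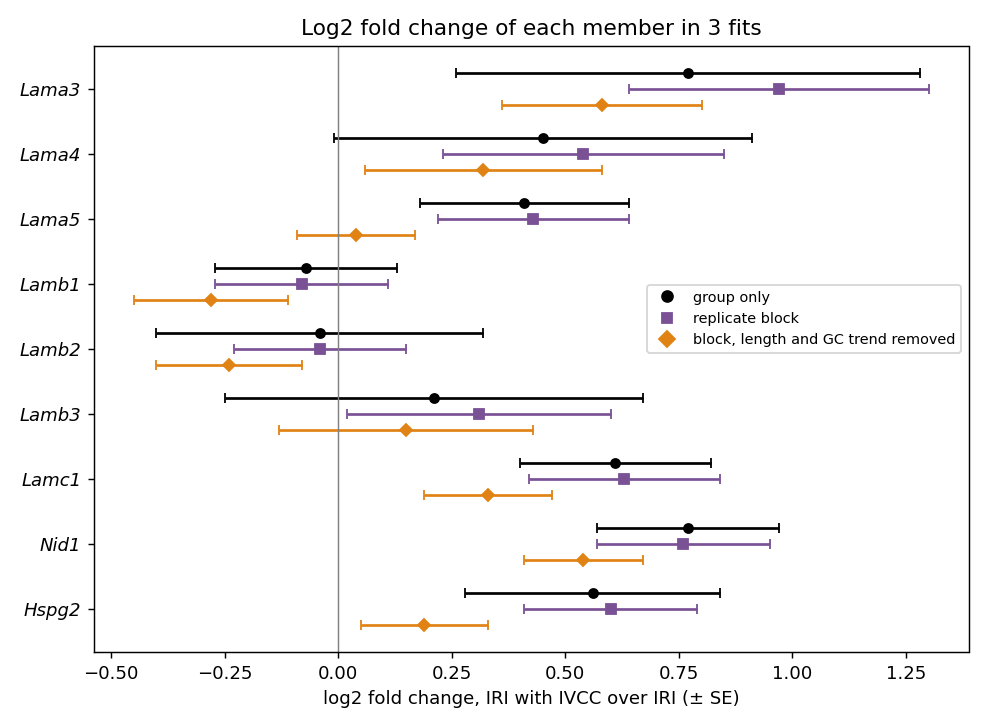
Log2 fold change of each member, congested IRI (IRI with IVCC) over IRI, with its standard error as the bar, in edgeR with group only (black circles), with the replicate block (purple squares) and with the block and the length and GC trend removed (orange diamonds). Nid1 lies at 0.77, 0.76 and 0.54 in the 3 fits, Hspg2 at 0.56, 0.60 and 0.19, and Lamb1 at -0.07, -0.08 and -0.28.

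Calls among these genes depended on replicate 3. Without replicate 3 of both groups, the block fit called 19.7% of 14453 genes higher and 18.1% lower in congested IRI kidney. That fit has 2 libraries a group and rests on taking the replicate numbers as pairs. In it 6 members were called higher: Lama3 by log2 1.52 (standard error 0.19, edgeR adjusted p = 3.30e-06), Nid1 by 0.91 (0.14, 2.22e-05), Lamc1 by 0.84 (0.13, 5.73e-05), Hspg2 by 0.71 (0.15, 6.35e-04), Lama5 by 0.64 (0.13, 8.19e-04) and Lama4 by 0.85 (0.33, 0.0467). With the length and GC trend also removed, 5.83% of genes were called higher and 9.46% lower. Lama3 (0.93, standard error 0.18, edgeR adjusted p = 0.00724) and Nid1 (0.56, 0.13, 0.0187) were then the members called higher. Lamb1 was called lower, at -0.50 (0.11, 0.0122), and Lamc1 was not called, at 0.39 (0.13, 0.0742). The fit with the trend removed was added after seeing the data, and leaving out replicate 1 or 2 of both groups called no member.

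Leaving out single libraries without the block kept Nid1 between 0.62 and 0.85 and Lamc1 between 0.48 and 0.79 on the log2 scale. The log2 fold change of Lama3 was 1.52 when IRI replicate 3 was left out and 0.40 when IRI replicate 1 was. The same omissions gave 0.82 and 0.09 for Lama4, 0.63 and 0.28 for Lama5, and 0.84 and 0.36 for Hspg2. Lama4 stood at 0.29 without congested replicate 2. No member was called in these fits.

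The members also differed among themselves in how they varied with the replicate number. edgeR's test of the replicate-number terms called 0 of the 9 members, against 8.01% of all genes, with Lamb2 closest at an adjusted p of 0.0656. Replicate 1 was low for Lamb2 in both groups, by log2 -0.91 against the mean of replicates 2 and 3 in congested IRI and by -0.96 in IRI kidneys. It was low for Lama3 (-0.63 in congested IRI and -1.52 in IRI) and Lama4 (-0.55 and -1.46), whereas Lamb3 was level in congested IRI (-0.06) and high in IRI kidneys (0.96). With single libraries left out, the fit that called the most members was also the fit that called the most genes. The count of members was 7 without congested replicate 3, against 53.5% of all genes, and 3 without IRI replicate 3, against 35.7%. At lower shares the counts did not move together. Without congested replicate 1, 2 members were called, against 8.25% of all genes. The count was 1 when replicate 2 of either group was left out, against 11.1% without the congested and 11.5% without the IRI library.

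Ratios between members within a library, which need no scaling factor, were compared for 6 pairs of genes by an exact two-sided permutation test, whose smallest possible p with 3 against 3 libraries is 0.1, so that none could pass 0.05. The log2 ratio of Lama3 to Lama5 was -2.46, -1.41 and -1.82 in congested IRI and -3.19, -2.46 and -1.72 in IRI replicates 1, 2 and 3 (exact permutation p = 0.5, adjusted 0.96). The log2 ratio of Nid1 to Lamc1 was -0.14 ± 0.17 in congested IRI and -0.28 ± 0.24 in IRI kidneys (SD, n = 3 each, exact permutation p = 0.5), and within replicates 1, 2 and 3 it was higher in the congested library by 0.05, 0.09 and 0.25. Hspg2 to Lamc1 averaged -0.59 ± 0.34 in congested IRI and -0.56 ± 0.18 in IRI kidneys (SD, n = 3 each, exact permutation p = 1). The ratio of Lamb1 to Lamb2 differed by -0.04, that of Lama4 to Lama5 by 0.15 and that of Lamb3 to Lamb2 by 0.37 on the log2 scale, congested minus IRI, with an adjusted p of 0.96 each in exact permutation tests.

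Across the 6 libraries, which share the groups and the length trend, log2 CPM of Lama5 and Lamc1 had a Pearson correlation of 0.95, Lama3 and Hspg2 one of 0.95, and Lamc1 and Nid1 one of 0.90. Lamb1 was negatively related to all 8 others, from -0.60 with Lama4 to -0.12 with Lamb2 and Lamb3. The 5 other genes most like the mean standardized level of the members, of 10964 with a mean of at least 5 CPM, were Lrrk1 (Pearson 0.996 over 6 libraries), Actn4 (0.993), Tmem214 (0.991), Plekhg2 (0.991) and Hip1 (0.988). Actn4, which encodes an actin cross-linker of podocytes and other cells, stood at 345.2, 378.1 and 408.3 CPM in congested IRI and 227.0, 295.0 and 340.2 CPM in IRI replicates 1, 2 and 3.

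None of the other basement membrane genes was called. Of 24 listed, 23 passed the filter on low counts and 19 of these had a log2 fold change above 0, with a median of 0.25, against 49.6% above 0 and a median of -0.005 over all genes. These are long genes, 17 of them with a transcript over 5 kb, a length at which 82.4% (5 to 8 kb) and 91.3% (over 8 kb) of all genes lay above 0. With the length and GC trend removed, 16 lay above 0 and the median was 0.06. Groups did not overlap on the higher side for 4 of them, Col4a1, Col4a2, Col18a1 and Pxdn, against 3.42% of all genes and 6.42% of those of 5 to 8 kb. With the trend removed the groups of these 4 overlapped. Sparc was then the single gene of the list higher without overlap, against 3.10% of all genes. On the lower side 1 gene of the list did not overlap, against 3.89% of all genes. Col4a1, the main collagen IV chain to which nidogen binds, had 502.8, 377.8 and 447.3 CPM in congested IRI and 341.6, 317.8 and 311.1 CPM in IRI replicates 1, 2 and 3 (log2 fold change 0.45 ± 0.22, SE). Its partner Col4a2 had a log2 fold change of 0.37 ± 0.20 (SE), and Pxdn, the peroxidase that cross-links collagen IV, one of 0.48 (0.23), all at an edgeR adjusted p of 0.934. Lama1 and Lama2, the other alpha chains, had log2 fold changes of 0.33 ± 0.32 (SE) and 0.25 (0.42).

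None of the 12 laminin receptor genes was called either. A log2 fold change above 0 was found in 10, with a median of 0.21. Over all genes tested, 49.6% lay above 0 and the median was -0.005. With the length and GC trend removed, 8 of the 12 lay above 0 and their median was 0.14. The groups did not overlap for 1, Itga7, on the higher side, against 3.42% of all genes. With the length and GC trend removed this held for none, against 3.10%. The smallest p values belonged to the integrin subunits Itga2 (1.06, standard error 0.52), Itga6 (0.62, 0.33) and Itgb4 (0.47, 0.40). Itga6, which pairs with Itgb1 or Itgb4 to bind laminin, had 248.8, 176.9 and 106.5 CPM in congested IRI and 138.3, 103.5 and 103.4 CPM in IRI replicates 1, 2 and 3. Replicate 3 of congested IRI was thus close to the IRI level. Of 12 enzymes that cut basement membrane, 10 passed the filter, 5 lay above 0 with a median of 0.01, and none was called. Mmp9, a gelatinase also made by neutrophils, had 6.45, 1.39 and 0.392 CPM in congested IRI and 1.67, 0.0852 and 0.0881 CPM in IRI replicates 1, 2 and 3. Plau and Mmp3 had log2 fold changes of -0.23 ± 0.24 (SE) and -0.50 (0.80).

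In whole cortex, fewer cells of a type and less RNA per cell cannot be told apart. None of the 9 smooth muscle and pericyte markers was called. All 9 had a log2 fold change above 0, with and without the length and GC trend removed, and their sum was 256.7, 257.7 and 246.3 CPM in congested IRI and 160.4, 185.9 and 124.7 CPM in IRI replicates 1, 2 and 3. These sums did not overlap, as with Nid1 and Lamc1, but without Acta2 they were 116.5, 179.8 and 152.1 CPM in congested IRI and 101.6, 128.6 and 102.1 CPM in IRI replicates 1, 2 and 3, which overlapped. Acta2 and Notch3 were the 2 markers higher without overlap, against 3.42% of all genes. The part of these cells in the differences of the members was not tested. The 10 endothelial markers summed to 345.7 to 435.1 CPM in congested IRI and 342.3 to 467.7 CPM in IRI kidneys. Of these, 5 lay above 0, or 4 with the length and GC trend removed. Pecam1 and Cdh5 were the 2 higher without overlap, against 3.42% of all genes. The 8 podocyte markers summed to 341.1 to 407.1 CPM in congested IRI and 330.0 to 376.1 CPM in IRI kidneys, with 6 above 0, or 4 with the trend removed. The 6 fibroblast markers summed to 140.8 to 454.0 CPM in congested IRI and 147.3 to 383.0 CPM in IRI kidneys. All 6 lay above 0, or 4 with the trend removed. Injured tubule markers summed to 11132 to 64961 CPM in congested IRI and 6432 to 47689 CPM in IRI kidneys, highest in replicate 1 of both groups. Most of each sum was Spp1, so the sums chiefly follow 1 gene. Spp1 had 59190, 15300 and 8781 CPM in congested IRI and 40190, 13350 and 4782 CPM in IRI replicates 1, 2 and 3. Of the 9 markers, 3 lay above 0, or all 9 with the length and GC trend removed. Macrophage markers summed to 76.8 to 111.5 CPM in congested IRI and 63.3 to 103.5 CPM in IRI kidneys. Of 8, 6 lay above 0, or 7 with the trend removed. Neutrophil markers summed to 213.6, 13.6 and 7.4 CPM in congested IRI and 71.7, 8.4 and 4.6 CPM in IRI replicates 1, 2 and 3, with Ly6g and Mmp8 at 0 in at least 1 library. Of 6, 3 passed the filter, and all 3 lay above 0 with and without the trend removed. None was called. Red blood cell markers summed to 99.5 to 141.2 CPM in congested IRI and 75.2 to 178.7 CPM in IRI kidneys. Of 5, 1 lay above 0, or all 5 with the trend removed. All 4 thick ascending limb markers lay below 0, at 1771.4 to 5991.9 CPM in congested IRI and 1322.4 to 5838.6 CPM in IRI kidneys. The same was so of the 4 collecting duct markers tested, at 173.8 to 636.5 CPM in congested IRI and 353.0 to 841.4 CPM in IRI kidneys.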

How the data were processed

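RNA from kidney cortex was made into stranded libraries of polyadenylated RNA, per the labels. The deposited values are raw whole-number counts, 1 per gene and library, which the authors had not normalized. Per the submitters' processing notes, the tools were STAR 2.7.10a, featureCounts and Subread on build GRCm38, with no roles given. Not given in the sources used here were parameters, annotation and the use of strand and multimapped reads.

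Counts were tested with edgeR 4.0.16 (R 4.3.3; TMM factors, filterByExpr with minimum count 10 and total 15, robust quasi-likelihood F test on group), with Benjamini-Hochberg adjustment over 14274 genes and a threshold of 0.05. For log2 CPM the prior count was 2. Gene positions, transcript lengths and GC content were read from GENCODE M21 (GRCm38), matching 95.6% of genes tested, and promoter windows from RefSeq. The per-library length and GC trend was fitted with mgcv 1.9.3 (basis 6) and removed as an offset. Mitochondrially encoded genes were not analysed here.

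Deviations from the group means correlated at 0.724, 0.342 and 0.429 between libraries numbered 1, 2 and 3. The numbers were taken as pairs, although the labels do not say what a number shares. Crossed numbers also correlated, at 0.401 for congested 3 with IRI 2 and 0.249 for congested 2 with IRI 3. The correlations thus set replicate 1 apart but do not show which of 2 and 3 pair.

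Members and lists were chosen with earlier results of these data known. Named were all members, the genes with the smallest p of each further list, Lama1 and Lama2, and the 5 genes most like the members. A further gene under this rule is not reported here. Col18a1, Sparc, Itga7, Acta2, Notch3, Pecam1 and Cdh5 were named after its values were seen. Alternatives were other scalings and filters, DESeq2 1.42.0, limma-voom (limma 3.58.1), the block, the trend, and libraries left out.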

Additional observations from a re-analysis of the deposited data

How the results depend on the processing

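The count of 0 genes called held under every scaling, filter, tool, length and single-library alternative run without the replicate block, under the block in edgeR and limma-voom, and under the block with the length and GC trend removed. It was 10 in DESeq2 with the block, 12, 9 and 5458 with the block and replicate 1, 2 or 3 left out of both groups, and 2210 in the fit without replicate 3 with the trend removed. The DESeq2 block fit and the fit without replicate 3 with the trend removed were chosen after seeing the data, and the cause was not tested. Members called between replicate numbers were 0 (8.01% of all genes), but 1 with total counts (8.12%), 3 with no filter (3231 of 26971 genes), 1 in DESeq2 (13.1%) and 0 to 7 with single libraries left out (5.85% to 53.5%).

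Nid1, Lamc1, Lama3, Lama4 and Hspg2 lay above 0 under every alternative run. Signs turned for Lamb1 (0.03 with total counts, 0.02 with the block without replicate 1), Lamb2 (0.05 with total counts, 0.09 with the block without replicate 2), Lamb3 (-0.01 with the trend removed, -0.16 with the block and trend without replicate 3, -0.42 with the trend without IRI replicate 3) and Lama5 (-0.02 with the trend without IRI replicate 3). With single libraries left out the ranges were -0.17 to 0 for Lamb1, -0.29 to 0.20 for Lamb2 and -0.15 to 0.54 for Lamb3. Ranges of the ratios were -0.31 to 0.35 for Lamb1 to Lamb2, -0.26 to 1.02 for Lamb3 to Lamb2, -0.21 to 0.41 for Lama4 to Lama5 and -0.21 to 0.14 for Hspg2 to Lamc1. Differences within a replicate number turned for Lama5 (-0.17) and Hspg2 (-0.03) in replicate 2 with the trend removed, and for Lamb2 (0.15) in replicate 1 with total counts. Depth limits Lama4 most, at 20 to 82 reads a library. With 3 libraries a group, differences of the size seen in Nid1 and Lamc1 did not pass the adjusted threshold.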
